A study of Mus musculus with 18 samples.

Results

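The cytosolic ribosomal protein genes were followed across 18 libraries of cultured mouse CD4 T cells. Members were the listed Entrez identifiers that a RefSeq table of the assembly GRCm38.p6 pairs with a protein-coding symbol starting with Rpl or Rps and a digit, or with Rplp0, Rplp1, Rplp2 or Rpsa. The Rps6k kinases, Rps19bp1 and every symbol named or annotated as a pseudogene were left out, among them Rpl34-ps1 and Rpl31-ps12, which the table types as protein-coding. This gave 88 genes of 27179 identifiers listed: 31 of the small (40S) subunit, 43 of the large (60S) subunit, 3 of the P stalk, 8 paralogs and 3 retrocopies, which are gene copies made from a reverse-transcribed mRNA. 85 of them passed the filter on low counts and were tested, among 11735 genes in all, and Rpl13, Rpl3l and Rpl10l did not pass it.

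All mice carried Maf fl/fl, a Maf gene flanked by sites that Cre recombinase cuts, and the genotype label was CD4Cre- or CD4Cre+, a transgene that expresses Cre in T cells. Naive CD4 T cells were activated on plates coated with antibodies to CD3 and CD28 for 3.5 days under the treatments Tfh_A, Tfh_1 or Tfh_5, whose composition the sources used here do not state, and were then sorted. The 6 groups of genotype label and treatment held 3 libraries each, made from 50 ng of RNA with a kit that reads the 3′ ends of polyadenylated transcripts. Nothing in the labels says whether libraries came from separate animals, so each p-value reflects only sample-to-sample spread, which may be technical. Maf itself went against the genotype labels, with 17.33 counts over the 9 libraries labelled Cre-negative and 12405.3 over the 9 labelled Cre-positive. Every difference between genotypes below is therefore a difference between labels that the level of Maf contradicts.

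Each ribosome is built from ribosomal RNA and 1 copy of most ribosomal proteins, and the P stalk on the large subunit recruits the elongation factors. T cells make many ribosomes after activation. Signalling through mTORC1 then raises translation of mRNAs that begin with a cytosine and a run of pyrimidines, the terminal oligopyrimidine messages. Nearly all ribosomal protein mRNAs belong to that class, and their genes have many processed pseudogenes, so short reads from them are often hard to place.

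Windows from 30 bases before to 20 after the RefSeq start are printed on the gene's strand for 7 members that recur below. Capitals mark a run of a C followed by at least 5 pyrimidines that starts between positions -10 and 21, counted from the annotated start. The windows of Rps7, Rps28 and Rpl26 hold no such run.
Rpl31: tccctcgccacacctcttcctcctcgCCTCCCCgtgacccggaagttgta
Rps7: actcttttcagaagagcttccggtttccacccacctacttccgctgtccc
Rpl35: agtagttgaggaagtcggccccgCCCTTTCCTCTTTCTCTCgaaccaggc
Rps28: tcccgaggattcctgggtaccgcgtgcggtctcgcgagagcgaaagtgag
Rpl26: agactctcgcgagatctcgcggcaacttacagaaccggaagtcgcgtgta
Rps27: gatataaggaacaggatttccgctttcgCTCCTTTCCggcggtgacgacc
Rps27rt: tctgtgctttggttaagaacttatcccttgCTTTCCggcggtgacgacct
In GRCm38.p6 these lie at chr1:39367821-39367870 (+), chr12:28635934-28635983 (-), chr2:39005112-39005161 (-), chr17:33824543-33824592 (-), chr11:68901536-68901585 (+), chr3:90213629-90213678 (-) and chr9:114982720-114982769 (-).

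Of the 68 members with a promoter in the RefSeq table, 37 (54.41%) held such a pyrimidine run on the transcript strand, against 27.32% of 27025 genes. The sequence CCGGAAG, which matches the core bound by ETS factors, was found on either strand in the 300 bases around the start of 26 members (38.24%) and of 9.928% of all genes. A start position annotated a few bases off moves the pyrimidine run out of the searched window, and a match describes letters only. Rps27rt, the retrocopy of Rps27, shares an unbroken run of 38 bases with its parent that begins at position 2 of Rps27 and position 1 of Rps27rt. The sequence printed before that run differs between the 2 genes.

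Libraries held 6424874 to 9236153 counts, of which 2 identifiers that the RefSeq table does not name (Entrez 100861531 and 19791) took 19.7% to 46.2%. Their share was 25.1% ± 7.56 (SD, n = 3) in Cre-negative Tfh_A libraries and 36.6% to 40.5% on average in the other 5 groups. It thus moves with the Cre-negative comparisons to Tfh_A. It also moves with the label comparison in Tfh_A (19.7% to 33.7% Cre-negative, 27.4% to 46.2% Cre-positive). Its part in these comparisons was not tested. Under the Cre-positive label the Tfh_A libraries (27.4% to 46.2%) overlapped the others. The summed level of 12 CD4 T cell markers was 2265 to 2921 CPM in 4 groups and 3915 to 4501 CPM in the Cre-positive Tfh_1 and Tfh_5 groups. The 10 CD8 T and NK cell markers summed to 183 to 249 CPM in Tfh_A against 22.2 to 73.5 CPM elsewhere, with Ncr1 at 0, and the 12 myeloid markers to 17.72 to 41.7 against 0.129 to 11.7 CPM, with none at 0 throughout. The 12 B cell markers ranged from 8.91 to 191 CPM with Pax5 at 0, and the 6 matched erythroid markers from 0 to 9.59 CPM with Hbb-bs among those at 0. These sums move with the treatments, and some also with the genotype label within a treatment. In Tfh_1 and Tfh_5 the labels did not overlap in the CD4 T cell sum, higher under the Cre-positive label. The B cell sum was lower under that label in Tfh_1 and Tfh_5 (8.91 to 21.3 against 50.3 to 91.4 CPM in Tfh_5) and higher in Tfh_A, without overlap. The part of these sums in the results was not tested.

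The members together took the smallest part of the counts in Cre-negative Tfh_A and the largest in Cre-positive Tfh_1. With the 2 unnamed identifiers set aside, the Cre-negative Tfh_A libraries held 10.5%, 10.97% and 9.65% of counts in ribosomal protein genes (10.4% ± 0.671, SD, n = 3) and the Cre-positive Tfh_A libraries 14.0%, 11.4% and 12.6% (12.7% ± 1.29). In Tfh_1 the libraries held 13.7%, 14.6% and 13.1% under the Cre-negative label (13.8% ± 0.751) and 17.3%, 15.8% and 17.4% under the Cre-positive label (16.8% ± 0.865). In Tfh_5 they held 12.8%, 14.9% and 15.4% (14.3% ± 1.41) and 16.1%, 14.8% and 14.8% (15.2% ± 0.749). The Cre-negative Tfh_A libraries lay below all others, and the Cre-positive Tfh_1 libraries overlapped only Cre-positive Tfh_5. Cre-positive Tfh_5 lay above Cre-positive Tfh_A and Cre-negative Tfh_1, and the remaining pairs of groups overlapped. Over all counts the group means were closer, from 7.77% ± 0.947 in Cre-negative Tfh_A to 10.4% ± 0.599 in Cre-positive Tfh_1. On that scale the Cre-negative Tfh_A libraries (6.96% to 8.81%) overlapped all groups but Cre-positive Tfh_1 (9.72% to 10.9%), for example Cre-negative Tfh_5 (8.06% to 8.79%). In bulk RNA, a change in the number of cells of a type and in the RNA per cell cannot be told apart.

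**Figure D1:**
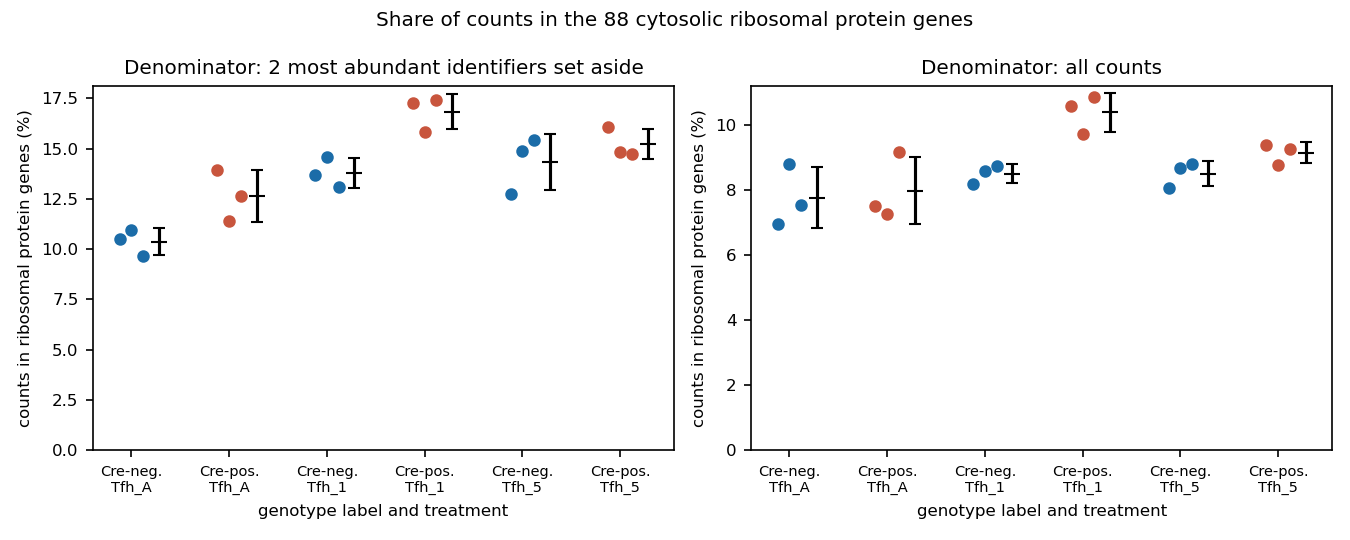
Share of counts in the 88 ribosomal protein genes (y axis, %) in each library (points, blue for the Cre-negative and red for the Cre-positive label) by group (x axis), with mean ± SD (n = 3) in black; the 2 most abundant identifiers are left out of the total on the left and kept on the right. The Cre-negative Tfh_A libraries are the lowest on the left (9.65% to 10.97%) and overlap other groups on the right.

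Levels below are CPM, rounded counts relative to a library total adjusted by TMM, a factor per library that centres most genes on no change. A read stands for a transcript end, and gene lengths were not used, so levels of different genes are listed but not ranked as amounts of mRNA. The highest mean levels over the 18 libraries were those of Rps20 (5225 CPM), Rps26 (4319), Rplp1 (3711), Rpl37rt (3159) and Rpl41 (2954). The lowest tested members were Rpl39 (0.718 CPM), Rps9 (1.07), Rps4x (1.67), Rpl39l (1.89) and Rpl4 (13.9). Rpl39, Rps9, Rps4x and Rpl4 encode core parts of the ribosome, yet were given 95.4, 144.9, 225.4 and 1871.2 counts in all, and Rpl13, another core part, 16.62. Those values describe where reads were assigned. Rpl4 held 21 to 173 counts in a library and was called in no comparison. Fold changes of Rpl39l, Rpl39, Rps9 and Rps4x rest on few counts and are not described.

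Most members shared the group in which they were lowest and the group in which they were highest. Of the 72 members with a mean of at least 200 CPM, 68 had their lowest group mean in Cre-negative Tfh_A and 59 their highest in Cre-positive Tfh_1. The order of the groups was not counted for other genes. Among the 421 other genes at that level, Cre-negative Tfh_1 lay without overlap above Cre-negative Tfh_A for 47% and below for 13.3%. For Cre-negative Tfh_5 these shares were 39.2% and 13.3%. The median member level was 552.3 CPM in Cre-negative Tfh_A, 560.5 in Cre-positive Tfh_A, 664.9 and 843.4 in Tfh_1, and 699.0 and 711.6 in Tfh_5, Cre-negative first. Replicates varied by a median coefficient of variation of 10.7% to 17.2% per group over these 72 genes. The widest spread was in Cre-negative Tfh_5, where Rps2, a protein at the mRNA entry of the small subunit, reached 76.95%.

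**Figure D2:**
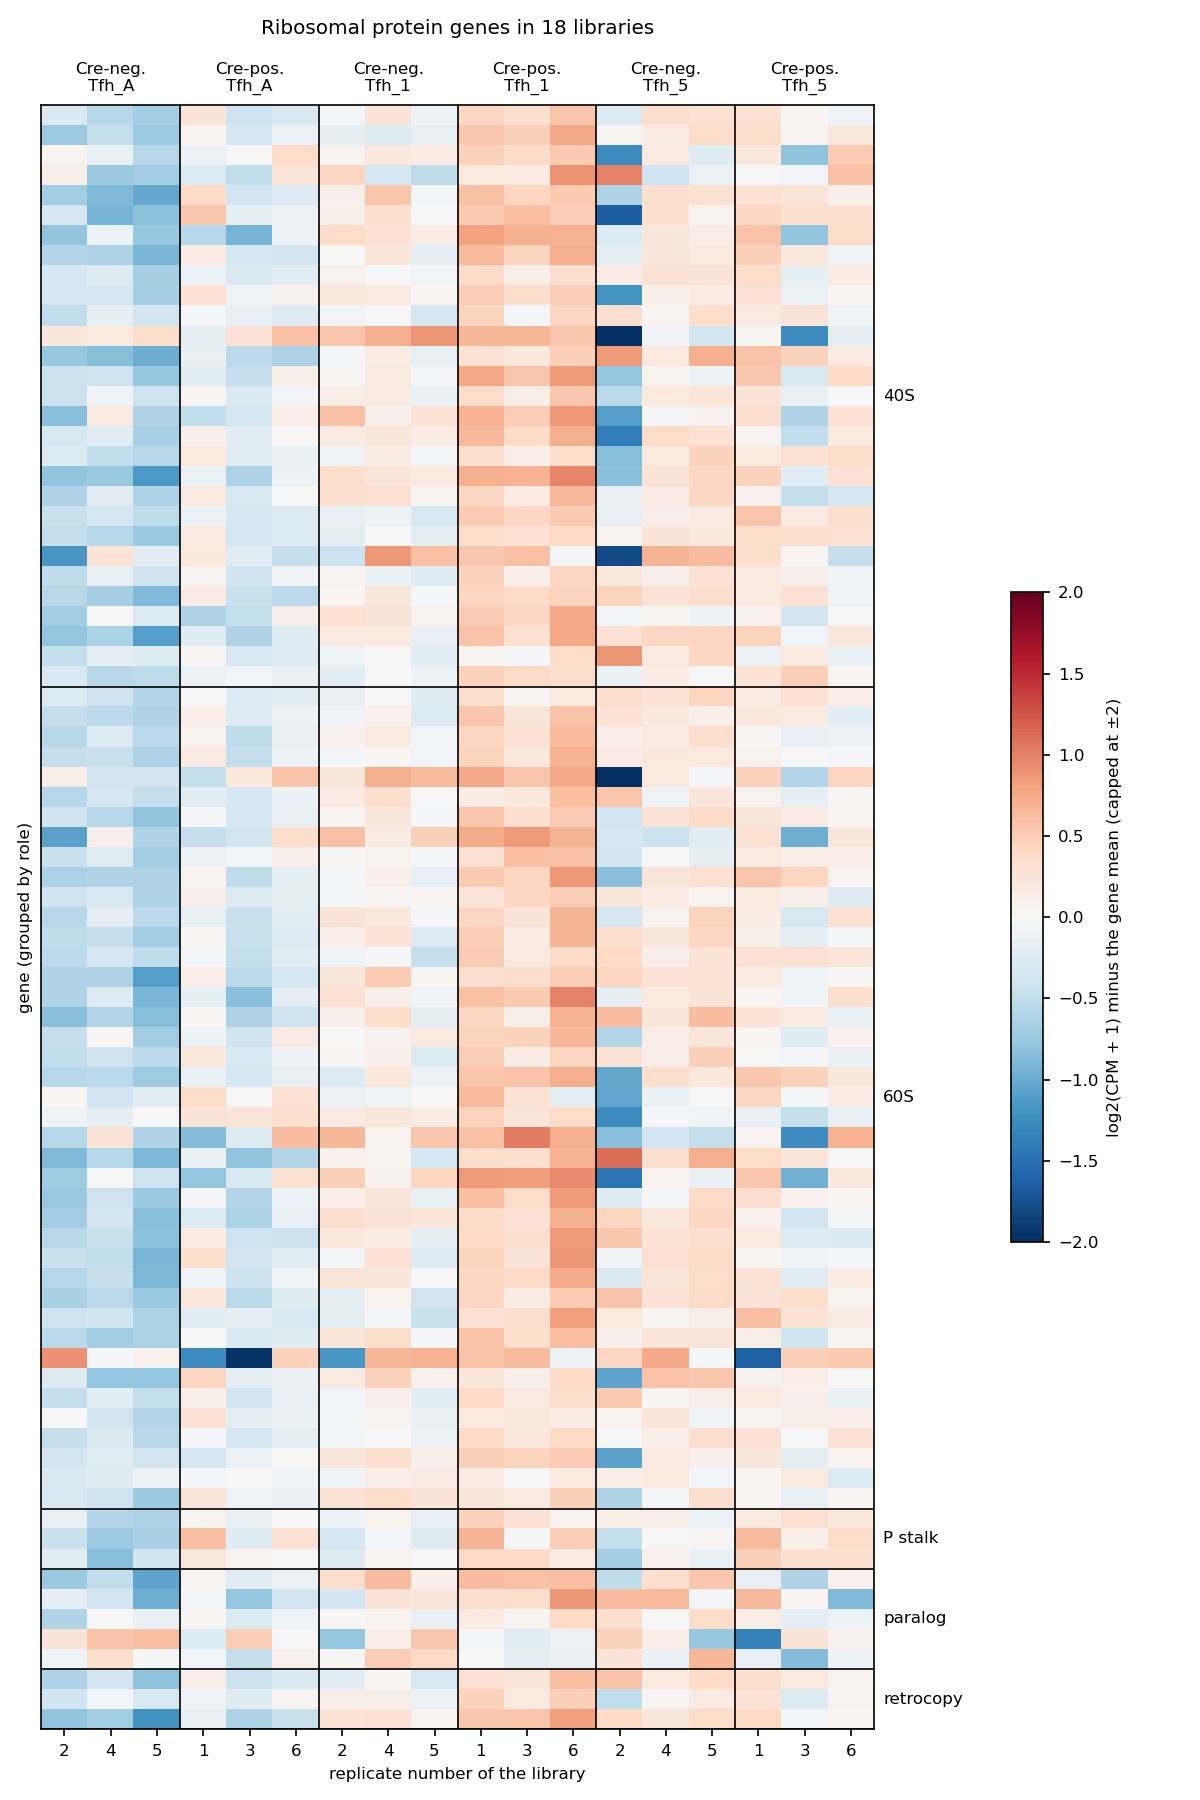
Level of each tested member with a mean of at least 10 CPM (rows, grouped by role and unnamed) in the 18 libraries (columns, grouped by genotype label and treatment, with replicate numbers below), as log2(CPM + 1) minus the gene's mean, with red above and blue below it. Cre-negative Tfh_A columns are mostly blue, Cre-positive Tfh_1 columns mostly red, and Cre-negative Tfh_5 replicate 2 mixes dark blue and red cells.

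Single libraries held many of the extremes of the members. Extremes were not counted for other genes, so a shift that other abundant genes share cannot be told apart here. Cre-negative Tfh_A replicate 5 was the lowest of the 18 for 38 of the 72 abundant members, and Cre-positive Tfh_1 replicate 6 the highest for 40. Cre-negative Tfh_5 replicate 2 was the lowest of the 18 libraries for 17 of the 72 abundant members and the highest for 6, while each of the other libraries of its group was the lowest for 0 and the highest for 2. Rps2 measured 35.5 CPM in it against 439.6 and 358 in the other libraries of its group, and Rps15 339 against 1344 and 1118. Rpl13a, whose protein is also known for silencing inflammatory mRNAs, measured 2.59 CPM against 57.7 and 49.8. Mitochondrially encoded genes took 2.49% of this library's counts once the 2 unnamed identifiers were set aside, the highest share of the 18 (0.848% to 1.69% in the others), and 12673 genes were above 0 in it, the most of any library.

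In libraries labelled Cre-negative, 18 of 85 members were higher in Tfh_1 than in Tfh_A and none were lower. 1.5% of all 11735 genes were called higher by edgeR's quasi-likelihood test (adjusted p under 0.05), and 15.2% of the 421 other genes with a mean of at least 200 CPM, while 0.733% and 3.56% were called lower. All 18 called members are among the 72 members with a mean of at least 200 CPM. The share to set beside the 15.2% is therefore 18 of 72. The median member rose by 0.53 on the log2 scale, against 0.28 for those other abundant genes and -0.04 for all genes. By role, 7 of 31 small-subunit, 9 of 42 large-subunit, 0 of 3 P stalk, 1 of 6 paralog and 1 of 3 retrocopy genes were called. Groups did not overlap, Tfh_1 higher, for 60 members, against 10.4% of all genes and 47% of the other abundant genes, and for 0 with Tfh_1 lower (12.2% and 13.3%).

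Rps27rt had the smallest adjusted p. It measured 799.7, 858 and 596 CPM in Cre-negative Tfh_A and 1678, 1688 and 1426 in Cre-negative Tfh_1, so the groups lay far apart. Its log2 fold change was 1.09 ± 0.17 (SE; edgeR, adjusted p = 7.94e-05). Rps27, the parent, a zinc finger protein of the small subunit, rose by 1.15 ± 0.23 (edgeR adjusted p = 0.00273), and since reads may be divided between both genes their changes are not independent. Rpl23a, which lies at the exit of the peptide tunnel, rose by 1.02 ± 0.19 (edgeR adjusted p = 0.00104). Rps20, a protein of the small-subunit head, rose by 0.85 ± 0.16 (edgeR adjusted p = 0.0012). Rps14, Rpl35, Rpl22l1 and Rps7 followed with log2 fold changes of 0.90 to 1.12.

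Leaving out Cre-negative Tfh_1 replicate 2 or 4, or Tfh_A replicate 5, left 11, 9 and 11 members called. DESeq2 called 28 and the fit of only the groups compared 40. With all counts as the library size and no TMM factor, the median of all genes moved from -0.04 to -0.47, that of the members from 0.53 to 0.09, and 2 members, Rps14 and Rps27rt, stayed past the threshold.

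Tfh_5 against Tfh_A under the Cre-negative label gave the longest list. 39 of 85 members were higher and none lower, and again all 39 were among the 72 members with a mean of at least 200 CPM. Of all genes 3.17% were called higher and 1.91% lower, and of the other genes at that level 27.3% and 5.7%. The list held 14 of 31 small-subunit genes, 22 of 42 large-subunit genes, 1 of 6 paralogs (Rpl22l1) and 2 of 3 retrocopies (Rps27rt and Rpl37rt), and no P stalk gene. The median member was 0.60 higher on the log2 scale, the other abundant genes 0.28 higher and all genes 0.09 lower (-0.09). For 45 members every Tfh_5 library lay above every Tfh_A library (10.7% of all genes and 39.2% of the other abundant genes), and for 1 member every one lay below (13.9% and 13.3%).

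Rps20 changed most clearly. Its level was 2885, 2697 and 2465 CPM in Cre-negative Tfh_A and 8874, 5602 and 8011 in Cre-negative Tfh_5, with no overlap. The log2 fold change was 1.48 ± 0.16 (edgeR adjusted p = 5.04e-08). Rpl31, which sits beside the tunnel exit, measured 298, 368 and 294 CPM in Tfh_A and 1187, 683 and 907 in Tfh_5, a rise of 1.53 ± 0.21 (edgeR adjusted p = 2.66e-06). Its lowest Tfh_5 library was above its highest Tfh_A library. Rps27rt, Rpl26, Rps7, Rpl37 and Rpl37rt were among the next by adjusted p, with log2 fold changes of 0.98 to 1.26. Rpl26 is a large-subunit protein known to bind the mRNA of p53, and Rps7 belongs to the small subunit.

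Several members did not follow. Rps2 measured 539, 527 and 590.4 CPM in Cre-negative Tfh_A and 35.5, 439.6 and 358 in Tfh_5 and did not pass the test. Rpl3, at the peptidyl transferase centre, measured 371, 343 and 391 CPM against 160.4, 379 and 369.5, with overlap.

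The fit of only the groups compared called 25 members. Without Tfh_5 replicate 2 the count of called members was 46, and without Tfh_5 replicate 5 or Tfh_A replicate 5 it was 25 and 23. With all counts as the library size the median of all genes moved to -0.64 and that of the members to 0.04. On that scale 7 members remained higher, among them Rpl26, Rpl31, Rpl37, Rps20, Rps27rt and Rps7, and 1, Rpl3, was lower at -0.85.

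**Figure D3:**
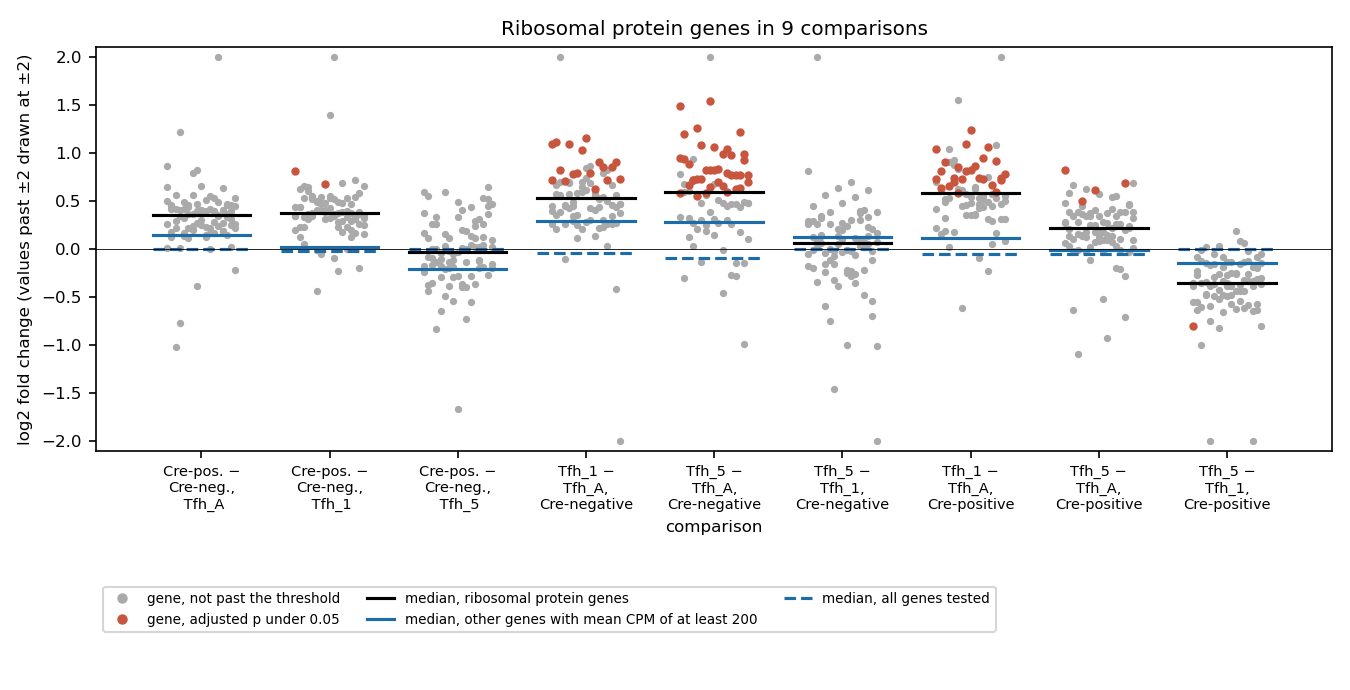
Log2 fold change (y axis) of the 85 tested members (points, red where the adjusted p is under 0.05) in 9 comparisons (x axis), with the medians of the members (black), of the 421 other genes with a mean of at least 200 CPM (solid blue) and of all genes (dashed blue). The member median is above both blue lines in the comparisons to Tfh_A and below them in Tfh_5 minus Tfh_1 under the Cre-positive label (-0.35).

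The same contrasts under the Cre-positive label used other libraries. In Tfh_1 minus Tfh_A, 26 of 85 members were higher and none lower. Of the 26, 25 were among the 72 members with a mean of at least 200 CPM. Of all genes 1.58% were called higher and 0.997% lower, and of the other abundant genes 12.4% and 3.8%. The median member was 0.58 higher, against 0.12 for the other abundant genes and -0.06 for all genes. Called members were 10 of 31 small-subunit, 14 of 42 large-subunit and 2 of 3 retrocopy genes. In 58 members the Tfh_1 libraries all lay above the Tfh_A libraries (9.06% of all genes, 33.7% of the other abundant genes), and in 0 they all lay below (9.76% and 12.6%).

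Rps27rt again led, at 1241, 903 and 1019 CPM in Cre-positive Tfh_A and 2003, 2041 and 2434 in Cre-positive Tfh_1, a rise of 1.03 ± 0.17 (edgeR adjusted p = 0.000169). Rpl24, at the bridge between the subunits, rose by 1.09 ± 0.21 (edgeR adjusted p = 0.00163). Rps7, Rps28, Rpl31, Rpl35, Rps15a and Rps20 followed with log2 fold changes of 0.73 to 1.24. Rps15a is a member of which named pseudogenes hold most counts, as described below. Of the 18 members called in Tfh_1 minus Tfh_A under the Cre-negative label, 13 (72.2%) were also called under the Cre-positive label, which is 50% of the 26 called there. Among these 13 were Rpl22, Rpl26, Rpl31, Rpl34, Rpl35, Rpl36a, Rpl38, Rps7, Rps16, Rps20, Rps27 and Rps27rt. Calls shared between the labels were not counted for other genes, here or for Tfh_5 minus Tfh_A below.

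The count of 26 called members depended on single libraries. It was 15 without Cre-positive Tfh_1 replicate 1, 9 without Tfh_1 replicate 6, 5 without Tfh_A replicate 3 and 12 without Tfh_A replicate 6. With all counts as the library size, 9 members stayed past the threshold, the median member was 0.42 and the median of all genes -0.24.

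Under the Cre-positive label, Tfh_5 minus Tfh_A gave 4 members higher and none lower, against 2.39% of all genes and 10.5% of the other abundant genes called higher and 3% and 11.4% lower. Rps20 measured 4433, 3407 and 3192 CPM in Tfh_A and 7259, 6743 and 5511 in Tfh_5 without overlap, a rise of 0.82 ± 0.16 (edgeR adjusted p = 0.000775). Rps28, a small protein near the mRNA exit, rose by 0.61 ± 0.16 (edgeR adjusted p = 0.0126). Rpl31 rose by 0.69 ± 0.20 and Rpl23, a protein of the subunit interface, by 0.50 ± 0.15 (edgeR adjusted p = 0.0345 and 0.0478). The median member was 0.21 higher, against -0.02 for the other abundant genes. Every Tfh_5 library was above every Tfh_A library for 19 members (9.78% of all genes, 18.3% of the other abundant genes) and below for 1 (11.6% and 21.4%).

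Of the 39 members called in Tfh_5 minus Tfh_A under the Cre-negative label, 3 (7.69%) were also called under the Cre-positive label, 75% of the 4 called there: Rpl23, Rpl31 and Rps20. The difference between these effects was tested and no member passed (edgeR, adjusted p under 0.05), with 24 members and 1284 of all genes at an unadjusted p under 0.05 and 8 members lower by DESeq2. The median member difference was -0.35, near the -0.33 of the other abundant genes, and with all counts as the library size it turned to 0.12. Of all genes 0.332% and of the other abundant genes 0.95% were called higher, and 0.861% and 9.74% lower. Without Cre-negative Tfh_5 replicate 2, 4 members were called, and without replicate 4, 1 member. The count of 4 for Tfh_5 minus Tfh_A became 1 without Tfh_5 replicate 1 or Tfh_A replicate 3 or 6, and 8 without Tfh_A replicate 1. DESeq2 called 9 and the fit of only the groups compared 1. Only Rps20 passed with all counts as the library size.

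**Figure D4:**
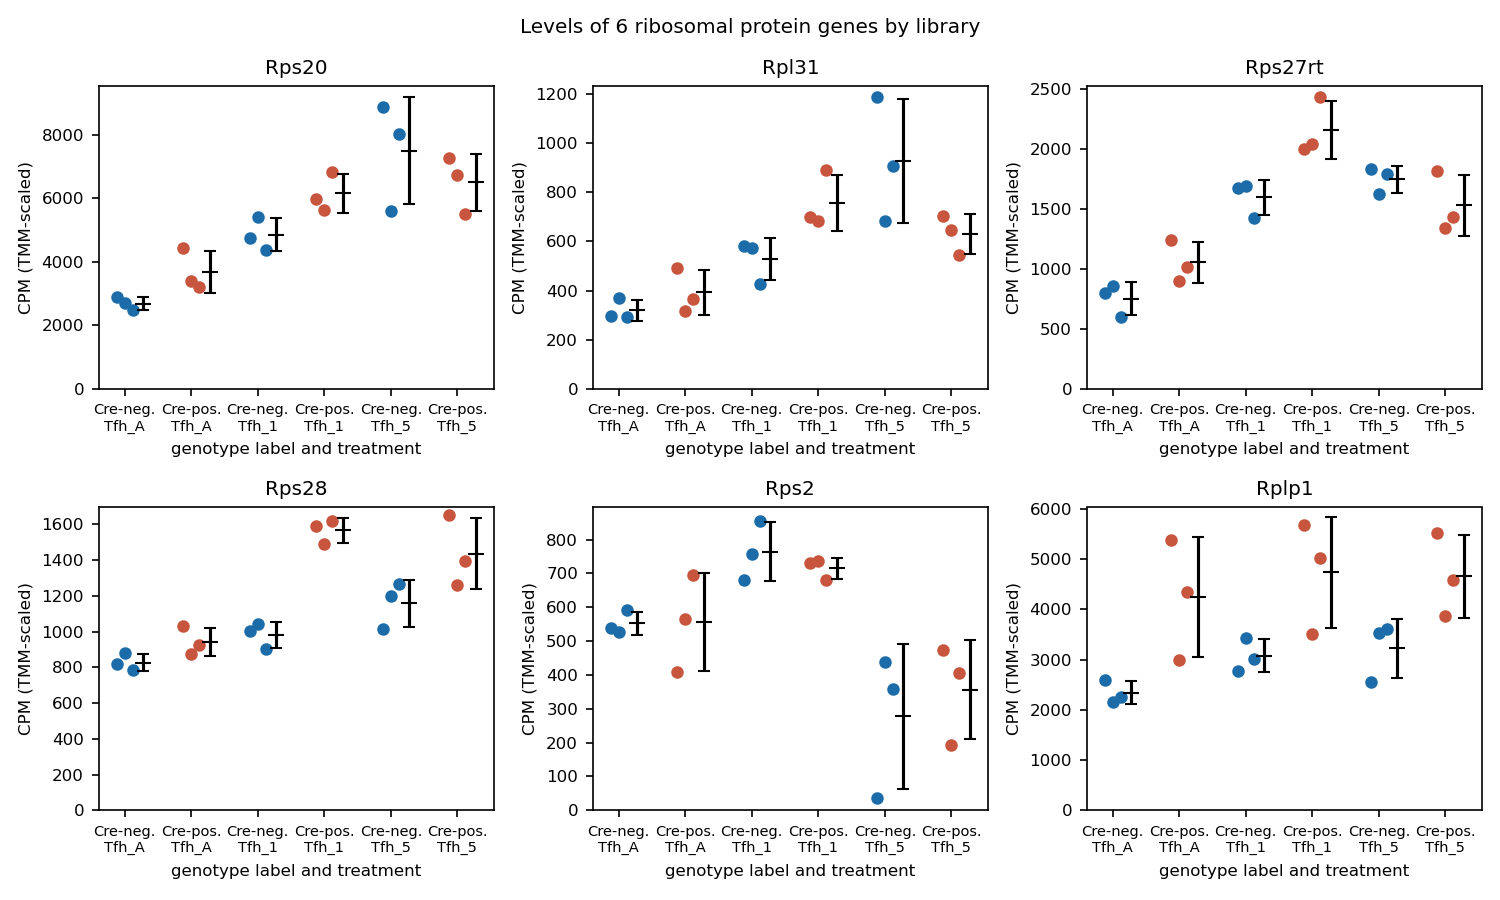
CPM (y axis, from 0) of 6 members in each library (points, blue Cre-negative and red Cre-positive label) by group (x axis), with mean ± SD (n = 3) in black. Rps20 is lowest in Cre-negative Tfh_A (2465 to 2885 CPM), Rps28 is at 1489 to 1617 CPM in the Cre-positive Tfh_1 libraries, and Rps2 is lowest in Cre-negative Tfh_5 replicate 2 (35.5 CPM).

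Few members were called between Tfh_5 and Tfh_1. Under the Cre-negative label none was (edgeR, adjusted p under 0.05), with 16 members and 1218 of all genes at an unadjusted p under 0.05 and 6 members higher by DESeq2. Of all genes 0.273% were called higher and 0.281% lower, and of the other abundant genes 2.38% and 2.61%. The median member difference was 0.06, against 0.13 for the other abundant genes. It was 0.14 without Cre-negative Tfh_5 replicate 2 and 0.004 without replicate 4, when 3 members were called, and -0.06 with all counts as the library size. The largest positive differences with low adjusted p were those of Rpl31 (0.81 ± 0.20, edgeR adjusted p = 0.0505) and Rps20 (0.63 ± 0.16, edgeR adjusted p = 0.0603), which missed the threshold. Groups did not overlap for 22 members with Tfh_5 higher (7.57% of all genes, 20.9% of the other abundant genes) and for 8 with Tfh_5 lower (8.42% and 13.5%).

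Under the Cre-positive label 1 of 85 members was lower in Tfh_5 than in Tfh_1 and none higher, against 1.32% of all genes and 10.2% of the other abundant genes lower and 0.435% and 1.9% higher. This was Rpl22l1, the paralog of Rpl22, whose balance with its parent is known to matter in developing T cells. It measured 593, 585 and 589.8 CPM in Tfh_1 and 345, 254 and 413 in Tfh_5, a log2 fold change of -0.80 ± 0.22 (edgeR adjusted p = 0.0484). Its groups did not overlap, but its call was lost without Tfh_1 replicate 1, 3 or 6, without Tfh_5 replicate 1 or 3, with unrounded counts, with only the groups compared and with all counts as the library size. No member was called without Tfh_1 replicate 1 or 6 or Tfh_5 replicate 3 (0 each), and 1 without each of the others. Rpl22 itself measured 3175, 2529.5 and 3622 CPM in Tfh_1 and 2455, 1983 and 2196 in Tfh_5 and missed the threshold (-0.49 ± 0.16, edgeR adjusted p = 0.144). The median member difference was -0.35, against -0.15 for the other abundant genes, and Tfh_5 lay below Tfh_1 in every library for 42 members (8.14% of all genes, 31.8% of the other abundant genes) and above it for 0 (7.22% and 8.55%). The difference between the Tfh_5 and Tfh_1 genotype effects gave no called member either (edgeR, adjusted p under 0.05; 26 members and 992 of all genes at an unadjusted p under 0.05; 0 by DESeq2), with a median of -0.41. Of all genes 0% were called higher and 0.0597% lower in it, and of the other abundant genes 0% and 1.19%. Between labels, the median of the other abundant genes was 0.02 in Tfh_1 and -0.21 in Tfh_5. That of the members was 0.37 and -0.04.

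Between genotype labels, members were higher under the Cre-positive label in Tfh_1 for 2 genes. 0.511% of all genes and 2.61% of the other abundant genes were called higher and 0.341% and 1.9% lower. DESeq2 called 9 of 87 members, edgeR with only the groups compared 8 of 82 and edgeR without a filter 5 of 87. Rps28 measured 1003, 1043 and 903 against 1594, 1489 and 1617 CPM, a log2 fold change of 0.67 ± 0.16 (edgeR adjusted p = 0.0222). Its libraries did not overlap between labels. Every Cre-positive library was above every Cre-negative library for 52 members (7.73% of all genes and 24.2% of the other abundant genes) and below for 1 (8.53% and 13.3%). The median member was 0.37 higher, against 0.02 for the other abundant genes. Without Cre-negative Tfh_1 replicate 2 or 4 or Cre-positive replicate 6 no member was called, and without Cre-negative replicate 5 or Cre-positive replicate 1 there was 1; both calls were lost with all counts as the library size.

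In Tfh_A no member and 0% of all genes were called between labels (edgeR, adjusted p under 0.05), with 34 members and 606 of all genes at an unadjusted p under 0.05 and 3 members higher by DESeq2. The median member was 0.35 higher under the Cre-positive label, against 0.14 for the other abundant genes. Libraries did not overlap in that direction for 39 members (6.15% of all genes, 19.2% of the other abundant genes) and in the other for 0 (6.82% and 7.6%). The member median went to 0.02 with all counts as the library size, when the median of all genes was -0.33. Without Cre-positive Tfh_A replicate 3, 1 member was called.

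In Tfh_5 no member was called (edgeR, adjusted p under 0.05), with 14 members and 1748 of all genes at an unadjusted p under 0.05 and 1 member higher by DESeq2. Of all genes 1.19% were called higher and 2.05% lower, and of the other abundant genes 3.33% and 15.2%. The median member was -0.04, against -0.21 for the other abundant genes. It was -0.10 without Cre-negative Tfh_5 replicate 2, when 8 members were at an unadjusted p under 0.05, 0.05 without replicate 5 and 0.08 with all counts as the library size. There were 5 members not overlapping higher (7.98% of all genes, 8.55% of the other abundant genes) and 8 lower (8.62% and 28.5%). Without Cre-negative Tfh_5 replicate 4, 3 members were called, and without Cre-positive Tfh_5 replicate 3, 1. For the difference between the genotype effects in Tfh_1 and Tfh_A no member passed (edgeR, adjusted p under 0.05; 1 member and 826 of all genes at an unadjusted p under 0.05; 0 by DESeq2), where 0.102% of all genes were called higher and 0.136% lower, and 0% and 1.66% of the other abundant genes.

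No P stalk gene was called in any comparison. Rplp1, an acidic stalk protein, measured 2601, 2155 and 2262 CPM in Cre-negative and 5379, 2995 and 4338 in Cre-positive Tfh_A, 2781, 3429.9 and 3004 against 5668, 3511 and 5015 in Tfh_1, and 2551, 3525 and 3606 against 5520.3, 3869.9 and 4582 in Tfh_5. The labels did not overlap in any treatment, yet the log2 differences of 0.86 ± 0.19, 0.62 ± 0.19 and 0.53 ± 0.19 missed the threshold (edgeR adjusted p = 0.096, 0.125 and 0.136). Rplp2, its partner, was 0.56, 0.37 and 0.59 higher and Rplp0, the stalk base, 0.41, 0.35 and 0.19 higher, none past the threshold. With all counts as the library size, Rplp1 and Rplp2 passed it in Tfh_5 (log2 differences 0.65 and 0.71, edgeR adjusted p = 0.026 for both). Rpsa, which also serves as a laminin receptor, was not called in any comparison. Rps27a, made as a fusion with ubiquitin, was higher in Tfh_1 (0.71 ± 0.19) and Tfh_5 (0.64 ± 0.19) than in Tfh_A under the Cre-negative label (edgeR adjusted p = 0.0304 and 0.0349). Both calls were lost without Tfh_A replicate 2 or 5 and with all counts as the library size, where the log2 fold changes of Rps27a were 0.26 and 0.06. The Tfh_1 call was also lost without Tfh_1 replicate 2 or 4, and the Tfh_5 call without Tfh_5 replicate 4 or 5 and with only the groups compared.

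Among paralogs, Rpl22l1 measured 233, 276 and 187 CPM in Cre-negative Tfh_A, 497, 595 and 415 in Tfh_1 and 271, 489.6 and 571 in Tfh_5, rising by 1.12 ± 0.22 and 0.94 ± 0.22 (edgeR adjusted p = 0.00222 and 0.0063). Only the Tfh_1 libraries were clear of the Tfh_A range. Rps27l, a p53 target and paralog of Rps27, averaged 188 CPM in Tfh_A and 221 in Tfh_1 under the Cre-negative label and 161 and 163 under the Cre-positive label. Rpl7l1, which acts in assembly of the large subunit, averaged 66.7 and 49.7, and 51.0 and 43.4 CPM. Neither was called in any comparison. Rpl36al, the copy of Rpl36a, was not called, while Rpl36a rose in Tfh_1 and Tfh_5 over Tfh_A under the Cre-negative label (0.79 ± 0.19 and 0.77 ± 0.19, edgeR adjusted p = 0.0166 and 0.0118). The Tfh_5 calls of Rpl22l1 and Rpl36a were lost without Tfh_A replicate 5 or Tfh_5 replicate 5 and with only the groups compared, the Tfh_1 call of Rpl36a without Tfh_A replicate 5 or Tfh_1 replicate 2 or 4, and the calls of both genes with all counts as the library size. Rpl7, the parent of Rpl7l1, rose in Tfh_5 over Tfh_A under the Cre-negative label (0.58 ± 0.16, edgeR adjusted p = 0.018). That call was lost without Tfh_A replicate 2 or 5 or Tfh_5 replicate 5, with only the groups compared and with all counts as the library size, where the log2 fold change of Rpl7 was 0.02. Rpl32l, the copy of Rpl32, was called in no comparison, at a mean of 44.4 CPM. Rpl3l, a muscle paralog, and Rpl10l, a testis paralog, held 0.61 and 7.77 counts in all. Rps4l is annotated as a pseudogene and was left out.

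The deposited counts of members were seldom whole numbers. In each library 91.7% to 98.8% of members above 0 had a fractional value, against 30.6% to 38.5% of the other genes above 0. 63 of the 88 members were fractional in all 18 libraries, and the remaining 25 in 2 to 17. Rps20, with the clearest change, was fractional in 17 libraries and holds 677795.4 counts. Fractional values mean that some reads were counted in parts, by a rule that the sources used here do not state.

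The ratio of a retrocopy to its parent varied little between libraries for 2 of the 3 pairs. Rpl37rt held 0.985 to 1.23 times the counts of Rpl37 across the 18 libraries, and Rps23rg1 0.536 to 0.641 times those of Rps23. Rps27rt held 3.12 to 4.47 times those of Rps27 in 17 libraries and 9.38 times in Cre-negative Tfh_5 replicate 2, the library that stood apart.

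33 identifiers named as pseudogenes of 14 members held 1399961 counts, equal to 12.1% of the members' own 11601119. Only symbols that add -ps to a member's symbol were taken. Pseudogenes under other names are not in this sum, such as Rpl6l with 53394 counts. Of the 33, 6 held more counts than their parent. Rps15a-ps6 had 391099 counts and Rps15a 21045, Rpl17-ps9 102887 and Rpl17 16052, and Rps27a-ps3 318266 and Rps27a 149015. Rpl13-ps6 held 20562 counts against 16.62 of Rpl13. When the named pseudogenes were added to their parents, an alternative chosen after seeing the data, the count of called members differed by over 1.5 times in 1 of 12 comparisons, Tfh_5 minus Tfh_1 under the Cre-positive label, where 2 members were lower.

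**Figure D5:**
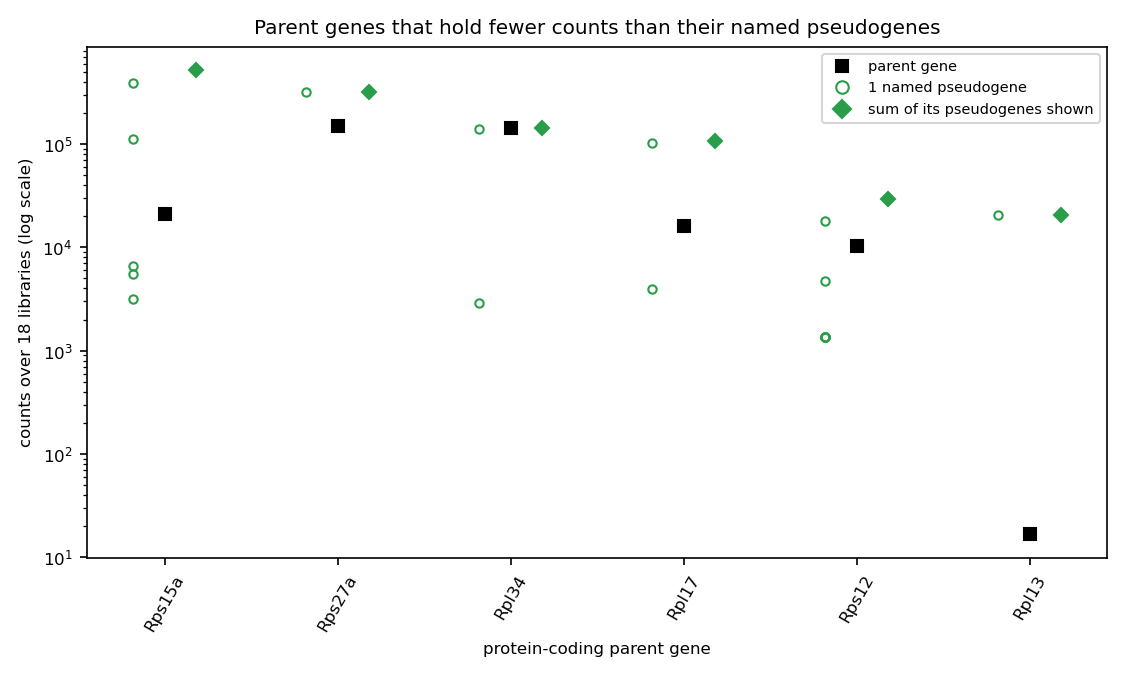
Counts summed over the 18 libraries (y axis, log scale) of the 6 parent genes (x axis; black squares) that hold fewer counts than their pseudogenes together, of each of their named pseudogenes with at least 1000 counts (open circles) and of the sum of those pseudogenes (green diamonds). The parents are Rps15a, Rps27a, Rpl34, Rpl17, Rps12 and Rpl13, and for Rpl34 only the sum of the pseudogenes is above the parent.

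Genes near the ribosomal protein family were counted in the same fit. Fau, which encodes a ribosomal protein fused to a ubiquitin-like protein but carries another name, and Rack1, a small-subunit scaffold, rose in the same contrasts. In Tfh_1 minus Tfh_A under the Cre-positive label their log2 fold changes were 0.92 ± 0.18 and 0.62 ± 0.15 (edgeR adjusted p = 0.00196 and 0.0126). In Tfh_5 minus Tfh_A under the Cre-negative label they were 0.78 ± 0.18 and 0.77 ± 0.15 (edgeR adjusted p = 0.00556 and 0.000794). Fau also was higher under the Cre-positive label in Tfh_1 (0.81 ± 0.18, edgeR adjusted p = 0.0173).

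The 75 tested mitochondrial ribosomal protein genes, which serve the separate ribosome of mitochondria, had medians of 0.06 and 0.13 in Tfh_1 and Tfh_5 minus Tfh_A under the Cre-negative label, with 0 and 3 called higher and none lower. In Tfh_1 minus Tfh_A under the Cre-positive label 0 were called and the median was 0.06. Mrpl30, Mrpl14 and Mrpl58 were the 3, at 0.97 to 1.17. In Tfh_5, Mrpl33 and Mrpl40 were lower under the Cre-positive label (-0.97 ± 0.21 and -1.32 ± 0.34, edgeR adjusted p = 0.00569 and 0.0199).

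Of 35 ribosome biogenesis genes, which make and process ribosomal RNA, 0 were higher in either contrast under the Cre-negative label. Dkc1, the pseudouridine synthase of ribosomal RNA, was lower in Tfh_1 than in Tfh_A (-0.98 ± 0.27, edgeR adjusted p = 0.0387). Ebna1bp2, Gar1 and Tcof1 were lower in Tfh_5 than in Tfh_A (-1.59 ± 0.38, -2.17 ± 0.53 and -1.24 ± 0.33, edgeR adjusted p = 0.00738, 0.00916 and 0.0162). The medians of the list were -0.67 and -0.37, while those of the members in the same contrasts were 0.53 and 0.60.

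Among 20 genes of mTORC1 and translation control, Larp1, which binds terminal oligopyrimidine messages, was lower in Tfh_5 than in Tfh_A under both labels (-1.92 ± 0.28 Cre-negative and -1.28 ± 0.28 Cre-positive, edgeR adjusted p = 1.25e-05 and 0.00239). Eif4ebp1, the repressor of the cap-binding factor, was lower in Tfh_5 than in Tfh_1 under the Cre-positive label (-1.61 ± 0.35, edgeR adjusted p = 0.00762). Of 31 initiation factors, Eif2s2 rose and Eif4g1 fell in both Cre-negative contrasts to Tfh_A, by 0.67 and -0.999 in Tfh_1 and 0.78 and -0.79 in Tfh_5. Contrasts that share the Tfh_A libraries are not independent of each other. The remaining lists, of elongation factors and other terminal oligopyrimidine messages, of chaperones and importers of ribosomal proteins and of p53 surveillance, had medians of 0.13, -0.09 and -0.39 in Tfh_5 minus Tfh_A under the Cre-negative label, with 4, 0 and 0 genes called higher and 2, 0 and 0 lower among 25, 13 and 13 tested.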

How the data were processed

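Polyadenylated RNA of 18 libraries was sequenced from its 3′ end. The submitters' processing notes name STAR 2.7.2b, featureCounts 1.6.4 and the build mm10 for the authors' work. The values deposited by the authors are expected counts that need not be whole, not normalized. Strand use and the division of shared reads are not stated in those notes, so copies, overlapping and antisense genes are uncertain. Identifiers were named through a RefSeq table of GRCm38.p6 (25275 of 27179). Counts were rounded to whole numbers. The test was edgeR 4.0.16 under R 4.3.3, with filterByExpr, TMM scaling and a quasi-likelihood fit of all 18 libraries with 1 mean per group. P-values were adjusted over 11735 genes by the Benjamini-Hochberg method, threshold 0.05. SE was worked back from the log2 fold change and the F statistic. The test was checked on simulated data. Totals were 6424874 to 9236153 counts, and counting error is small beside replicate spread for all but the lowest members. The members, gene lists and motifs were chosen with earlier results of these data known. Named genes were the called members (up to 8 a comparison by adjusted p), the 5 highest and 5 lowest, paralogs and their parents, P stalk genes, Rpsa and Rps27a; many members tie for fractional values. Rps2, Rps15, Rpl3 and Rpl13a were named after their values were seen. Some genes that the rule would name are not reported here. Alternatives were DESeq2 1.42.0, no filter, unrounded counts, other scalings, only the groups compared, a replicate block, each library left out, and pseudogenes added to parents. Scaling by all counts and adding pseudogenes were chosen after seeing the data.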

Additional observations from a re-analysis of the deposited data

Results flagged for a closer look

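6 identifiers outside the members, named as pseudogenes, held more counts than their protein-coding parent: Rps15a-ps6 with 391098.86 counts over the 18 libraries, Rps27a-ps3 with 318266.46, Rps15a-ps5 with 111067.94, Rpl17-ps9 with 102887.44, Rpl13-ps6 with 20562.37 and Rps12-ps10 with 18006.2. The main comparisons of members do not use these counts. No group is a control for them. Reads shared with the parent may be counted in them, so these totals cannot show whether the pseudogenes are transcribed.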

How the results depend on the processing

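Counts below are members called by an adjusted p under 0.05. With DESeq2 they were 3, 9 and 1 between labels in Tfh_A, Tfh_1 and Tfh_5, 28 in Tfh_1 minus Tfh_A and 6 in Tfh_5 minus Tfh_1 under the Cre-negative label, 9 in Tfh_5 minus Tfh_A and 6 in Tfh_5 minus Tfh_1 under the Cre-positive label, and 8 in the difference of the Tfh_5 and Tfh_A genotype effects. Without a filter they were 3 and 5 between labels in Tfh_A and Tfh_1, 5 in Tfh_5 minus Tfh_1 under either label, and 1 in that difference of effects. Fitting only the groups compared gave 8 between labels in Tfh_1, 40 and 25 in Tfh_1 and Tfh_5 minus Tfh_A under the Cre-negative label, and 1 and 0 in Tfh_5 minus Tfh_A and Tfh_5 minus Tfh_1 under the Cre-positive label. All counts as the library size gave 0 and 2 between labels in Tfh_1 and Tfh_5, 2 and 8 in the Cre-negative contrasts to Tfh_A, and 9, 1 and 0 in the Cre-positive contrasts Tfh_1 minus Tfh_A, Tfh_5 minus Tfh_A and Tfh_5 minus Tfh_1. In the last of these, unrounded counts gave 0 and pseudogenes added to parents 2. The cause of these differences was not tested. Leaving out 1 library gave 0 to 1, 0 to 3 and 0 to 3 between labels in Tfh_A, Tfh_1 and Tfh_5, 9 to 21, 23 to 46 and 0 to 3 in Tfh_1 minus Tfh_A, Tfh_5 minus Tfh_A and Tfh_5 minus Tfh_1 under the Cre-negative label, 5 to 32, 1 to 8 and 0 to 1 under the Cre-positive label, and 0 to 4 in the difference of the Tfh_5 and Tfh_A effects.

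Over all counts the share of members was 7.77%, 7.98%, 8.51%, 10.39%, 8.51% and 9.15%, and as summed TMM-scaled CPM 5.96%, 7.83%, 8.82%, 11.43%, 9.62% and 9.53%, in the order Tfh_A, Tfh_1, Tfh_5 with the Cre-negative label first in each. Of 44 called values of named members, 44 kept their call with DESeq2. When members and the 2 unnamed identifiers were left out of the scaling, 44 kept it. With only the groups compared 34 kept it and with all counts as the library size 16 did. Under any alternative run, 0 changed sign. A replicate block gave 18, 41 and 0 called members in the Cre-negative contrasts, 28, 6 and 2 in the Cre-positive contrasts and 0 in each difference of effects. Same-numbered libraries did not deviate together (18 correlations from -0.037 to 0.066, 7 libraries closest to their own number), so the numbers were not taken to pair samples. Genotype labels share no replicate number, and no block was fitted between them. Few counts limit Rpl39, Rps9, Rps4x, Rpl39l and the 3 untested members, and why they hold so few was not tested.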
